A study of Mus musculus with 8 samples.

Results

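A set of 10 Notch pathway genes was examined in back skin epidermis of aged mice: the receptor genes Notch1, Notch2 and Notch3, the ligand genes Jag1, Jag2 and Dll1, the nuclear mediator gene Rbpj, and the target genes Hes1, Hey1 and Nrarp. They were chosen by name, and all 10 were matched by identifier among 49315 genes. RNA sequencing counts came from 8 libraries of isolated epidermis, labelled as keratinocytes, from mice aged 22 months. Of these, 3 were labelled WT and 5 Tgfa KO, and none carries a further treatment in the labels. Tgfa codes for TGF-alpha, which binds and activates the EGF receptor. The structure of the knockout allele, the strain and whether libraries came from separate animals are not stated in the labels, so the p-values reflect library-to-library spread, which may be technical.

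Notch signalling passes between touching cells. A ligand of the Jagged or Delta-like family on a cell binds a Notch receptor on its neighbour, the receptor is cut by an ADAM protease and then by the gamma-secretase complex, and the freed intracellular domain enters the nucleus, where it binds RBPJ and turns on genes such as Hes1, Hey1 and Nrarp. In the epidermis the pathway is known for driving basal keratinocytes into the spinous layer and for keeping hair follicle lineages in order. It is linked to EGF receptor signalling, which favours the basal state in keratinocytes.

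Some libraries stood apart before any comparison. Tgfa itself was 92.5, 85.1 and 112 CPM (counts scaled to library size with TMM factors) in WT replicates 1 to 3 and 34.4 to 70.2 in KO replicates 2 to 5. The library labelled KO replicate 1 had 132 CPM, the highest value, unlike the other KO libraries. All KO libraries kept Tgfa reads. Whether the label of this library is right was not tested, and with the allele not described an RNA level cannot decide it. KO replicate 2 was the shallowest, with 5313552 counts against 12968728 to 18292303 in the others. It also held 6.327 counts per kb of exon on 15618 autosomal genes that had no count in the 5 libraries with few olfactory and vomeronasal receptor counts, against 1.119 in WT replicate 2 and 2.331 in WT replicate 3. Malat1, a nuclear RNA, took 6.61% of the total in WT replicate 3, 4.88% in the library labelled KO replicate 1 and 1.34% to 1.84% elsewhere. Library names end in br for WT replicates 1 to 3, the library labelled KO replicate 1 and KO replicate 2, and in bl for KO replicates 3 to 5, and the labels do not explain these endings. Markers of the labelled cell type were abundant: 7 basal keratinocyte genes (Krt14 and Krt5 the highest per kb) summed to 4323 to 14072 CPM in WT and 5700.1 to 14183 in KO, and 8 suprabasal genes (Krt10 and Krtdap the highest) to 9041 to 16636 CPM in WT and 8085 to 26987 in KO.

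Across the 8 libraries, 40.6 CPM per kb of exon of Notch2 led the set, and Hey1 was nearly absent. On this length-scaled level, Jag1 followed at 39.8, Notch1 and Hes1 at 36.2 each, Jag2 at 29.1 and Notch3 at 24.4. Each neighbouring pair among these 6 genes overlapped in range, and the upper gene was higher in 5 or 6 of 8 libraries, so their order is not fixed by these data. A lower tier held Nrarp at 7.79, Rbpj at 7.68 and Dll1 at 5.73 CPM per kb. These tiers depend on the length used, that of all annotated exons of a gene, which is 12750 bases for Rbpj and 2037 for Hes1. Before division by length, Rbpj was 72.9 to 135 CPM and Hes1 43.5 to 124. Notch3 exceeded Nrarp in 8 of 8 libraries, with a ratio of means of 3.13, although their ranges touched through KO replicate 2. Hey1 was at 0.274 CPM per kb, and its range of 0.0874 to 1.01 lay wholly below that of Dll1. In bulk tissue, fewer cells of a type and less RNA per cell cannot be told apart.

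**Figure D1:**
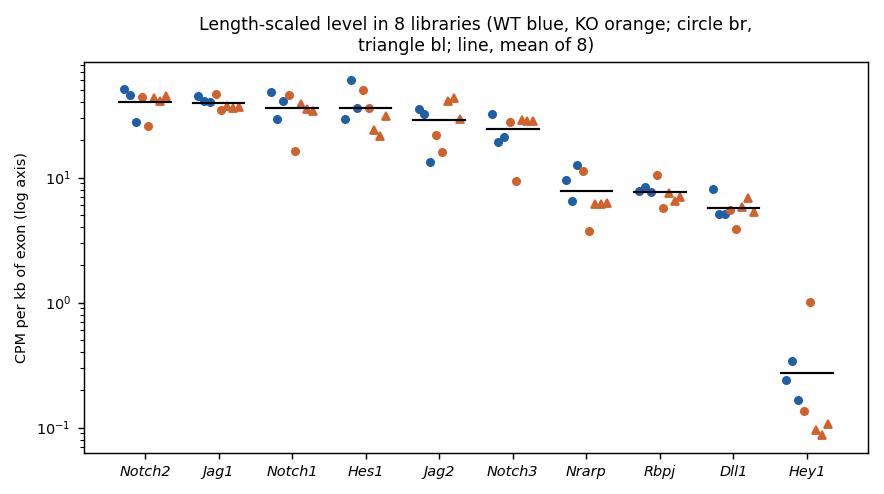
Length-scaled level of the 10 genes, in CPM per kb of exon on a log axis, ordered by the mean of 8 libraries (black lines). Blue points are WT and orange points KO libraries, circles have names ending in br and triangles in bl. The upper 6 genes sit between 24.4 and 40.6 on average, 3 between 5.73 and 7.79, and Hey1 far below.

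The bases before the start sites of the members were searched for the core of the RBPJ site, TGGGAA, for the E-box CACGTG that Hes and Hey proteins can bind, and for the GC box GGGCGG, on both strands. RefSeq promoters on GRCm38 were used for 8 members (10 windows of 250 bases), all but Hes1 and Hey1, and the windows of Notch3 and Nrarp, which overlap no annotated exon, are shown to let a reader see what lies before a receptor gene and a target gene of the set. They run 5′ to 3′ on the strand of the gene, at chr17:32166891-32167140 (minus strand) and chr2:25180508-25180757 (plus strand), and capitals mark GC boxes and the E-box, some of which adjoin or overlap by a base.
Notch3: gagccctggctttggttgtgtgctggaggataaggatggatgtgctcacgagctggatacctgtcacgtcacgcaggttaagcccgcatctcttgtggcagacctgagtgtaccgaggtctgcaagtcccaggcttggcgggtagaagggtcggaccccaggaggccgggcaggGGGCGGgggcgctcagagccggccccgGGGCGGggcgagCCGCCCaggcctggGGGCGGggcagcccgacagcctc
Nrarp: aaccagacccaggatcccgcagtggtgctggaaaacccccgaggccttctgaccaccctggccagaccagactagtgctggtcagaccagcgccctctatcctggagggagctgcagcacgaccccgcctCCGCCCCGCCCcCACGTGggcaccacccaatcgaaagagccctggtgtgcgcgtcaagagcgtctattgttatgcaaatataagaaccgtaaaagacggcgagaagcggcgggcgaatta
The Notch3 window held 4 GC boxes, from base -76 to base -18 before the start site. The Nrarp window held 2 GC boxes between bases -120 and -110 and 1 E-box at -108 to -103. GC boxes also stood in the windows of Notch1, Notch2 and Jag2, at 5 in each. Over all 32851 promoter windows of the same length, 32.7% held a GC box, 6.02% the E-box and 21.6% the RBPJ core. The member windows were 56.0% to 87.2% G and C, against a median of 52.4% over all windows. The shares were not matched for this, so no enrichment is read from them. The RBPJ core was found in the windows of Rbpj alone among these 8 members. It lay at bases -149 to -144 and -65 to -60 before 1 start site of Rbpj. The window of a neighbouring start site overlaps this one, and the match it holds at -205 to -200 is the same genomic site as that at -65 to -60. A match is a description of these letters, and its absence says nothing of RBPJ binding elsewhere.

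No member separated Tgfa KO from WT epidermis. In the edgeR quasi-likelihood test over 19239 genes, 0 of the 10 members passed an adjusted p of 0.05, where 0.0052% of all genes tested did (1 gene). Adjusted p ran from 0.892 to 0.994, and 0 members had an unadjusted p under 0.05, against 6.28% of all genes. WT and KO libraries overlapped for all 10 members. Of all genes, 3.4% were higher in every KO library than in every WT library and 1.75% lower. Tgfa itself did not pass in this test, and its groups overlapped. Its log2 fold change (KO minus WT) was -0.61 (SE 0.43, 95% interval -1.57 to 0.35, edgeR adjusted p = 0.899). The log2 fold change was negative for 7 members and positive for 3, with a median of -0.12, beside a median of 0.16 over all genes tested. For 6 members (Notch1, Notch2, Notch3, Jag1, Dll1 and Rbpj) the 95% interval lay within -1 and 1 on the log2 scale. That bound is a difference of 2-fold. For Jag2, Hes1, Nrarp and Hey1 the interval reached past that bound on at least 1 side.

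**Figure D2:**
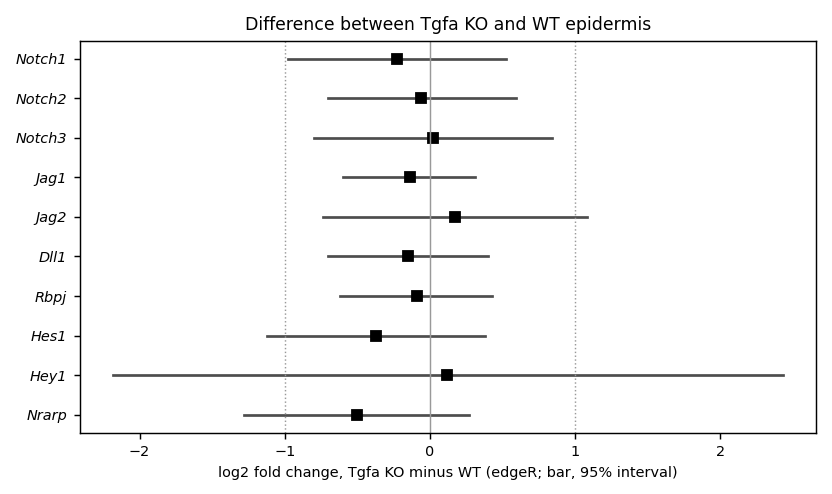
Log2 fold change of each member, Tgfa KO minus WT, from the edgeR fit on 8 libraries (squares), with 95% intervals (bars) and dotted lines at -1 and 1. All 10 intervals cross 0, and that of Hey1, from -2.18 to 2.43, is the widest.

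Among the receptor genes, Notch1 (ENSMUSG00000026923, chromosome 2, 26457903 to 26516663, minus strand, GRCm38) encodes the receptor best known for keratinocyte differentiation. It was 693, 419.6 and 589 CPM in WT replicates 1 to 3, 649 CPM in the library labelled KO replicate 1, and 231, 553, 505 and 484 CPM in KO replicates 2 to 5. The highest value was WT replicate 1 and the lowest KO replicate 2, and the other KO libraries lay inside the WT range. The group values were 567 ± 138 CPM for WT (SD, n = 3) and 484 ± 155 CPM for KO (SD, n = 5), a log2 fold change (KO minus WT) of -0.23 (SE 0.34, 95% interval -0.98 to 0.52, edgeR adjusted p = 0.935).

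Notch2 (ENSMUSG00000027878, chromosome 3, 98013527 to 98150361, plus strand) encodes a further receptor found in the epidermis. Its level was 549, 496 and 300.4 CPM in WT replicates 1 to 3, 479.5 CPM in the library labelled KO replicate 1, and 278, 472, 445 and 483 CPM in KO replicates 2 to 5. WT replicate 3 and KO replicate 2 were the lowest libraries by far, so the low values came from 1 library of each group. With 448 ± 131 CPM for WT (SD, n = 3) and 431 ± 87.2 CPM for KO (SD, n = 5), the difference was a log2 fold change (KO minus WT) of -0.06 (SE 0.29, 95% interval -0.70 to 0.59, edgeR adjusted p = 0.977).

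Notch3 (ENSMUSG00000038146, chromosome 17, 32120820 to 32166880, minus strand) encodes a receptor known from vascular smooth muscle and also made in suprabasal keratinocytes. It measured 258, 155 and 171 CPM in WT replicates 1 to 3, 223 CPM in the library labelled KO replicate 1, and 76.2, 232, 227 and 228 CPM in KO replicates 2 to 5. The library labelled KO replicate 1 and KO replicates 3 to 5 lay close together, above 2 of the 3 WT libraries, and KO replicate 2 was far below all others. Means were 195 ± 55.4 CPM for WT (SD, n = 3) and 197 ± 67.6 CPM for KO (SD, n = 5), a log2 fold change (KO minus WT) of 0.02 (SE 0.37, 95% interval -0.80 to 0.84, edgeR adjusted p = 0.994). Its direction turned without WT replicate 2 (log2 fold change -0.33) and among libraries ending in br (-0.40), so it has no settled sign.

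The mural cell markers, which mark vascular cells that also express Notch3, summed to 25.6 to 32.4 CPM in WT and 11.2 to 88.6 in KO. Cspg4 was the largest part of the sum in every library. The highest sum was that of KO replicate 2, with 510 counts, of which its background on the silent genes described above gives 215.9. Rgs5 was at 0 in KO replicate 3, and in that library Notch3 was 232 CPM. The part of these cells in the Notch3 values was not tested. Endothelial markers (Pecam1 and Plvap the highest per kb) summed to 111 CPM in KO replicate 2 and to 3.75 to 23.4 in the other 7 libraries. The share of the receptor pool differed little between the groups: of the summed length-scaled level of Notch1 to Notch4, Notch1 took 37.8% ± 7.29 in WT libraries (SD, n = 3) and 33.9% ± 3.17 in KO libraries (SD, n = 5). Notch2 took 39.2% ± 8.88 and 41.3% ± 4.22, and Notch3 22.7% ± 2.11 and 24.1% ± 3.74. Notch4, a receptor of endothelial cells, had 3.28% in KO replicate 2 and at most 0.352% in any other library. Groups overlapped for each of these shares.

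**Figure D3:**
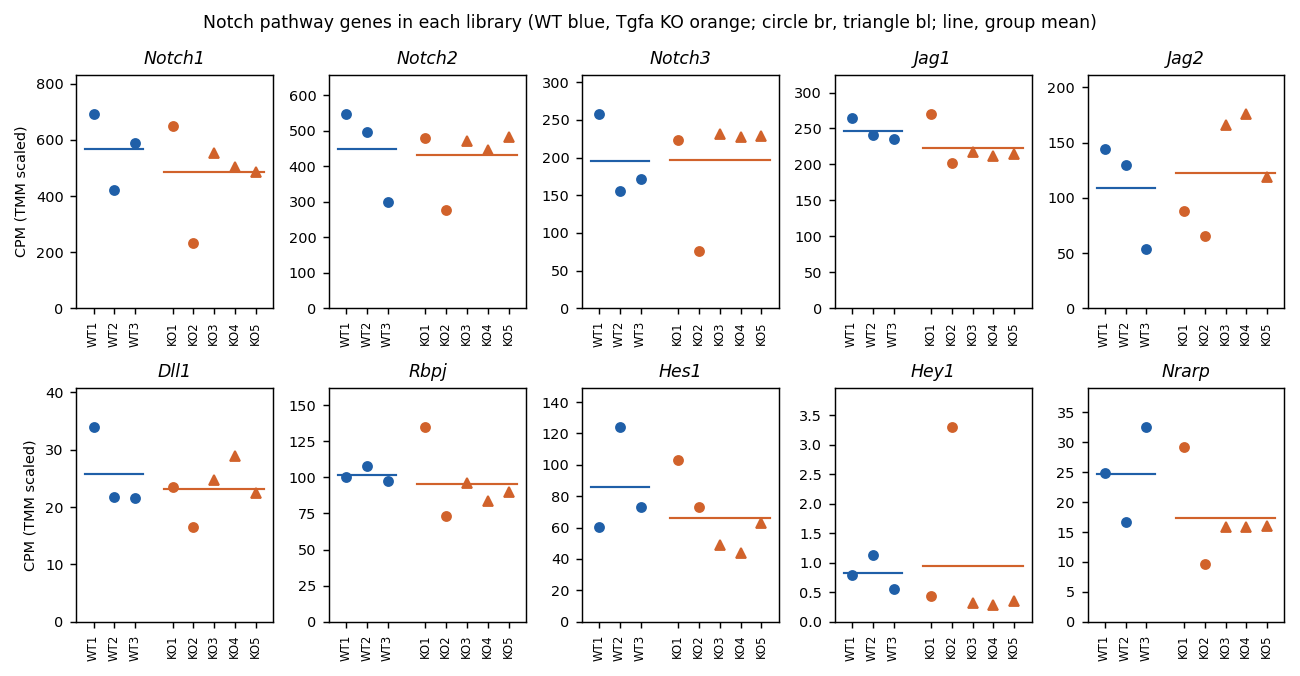
Level of each member in each library, in CPM on linear axes that start at 0. Blue is WT, orange KO, circles are libraries ending in br and triangles in bl, and lines are group means. WT and KO overlap in every panel, and KO replicate 2 is the lowest library for 7 of the 10 genes.

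Of the ligand genes, Jag1 (ENSMUSG00000027276, chromosome 2, 137081456 to 137116644, minus strand) varied least of all members. It was 265, 240.3 and 236 CPM in WT replicates 1 to 3, 271 CPM in the library labelled KO replicate 1, and 202, 218, 212 and 215 CPM in KO replicates 2 to 5. The highest library was 1.34 times the lowest, and the library labelled KO replicate 1 stood above the rest of its group. Group values were 247 ± 15.6 CPM for WT (SD, n = 3) and 223 ± 27.2 CPM for KO (SD, n = 5), a log2 fold change (KO minus WT) of -0.14 (SE 0.20, 95% interval -0.60 to 0.31, edgeR adjusted p = 0.935).

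Jag2 (ENSMUSG00000002799, chromosome 12, 112908590 to 112929495, minus strand), a ligand gene of basal keratinocytes, varied 3.28-fold between libraries, and did so within both groups. Levels were 144, 130.1 and 53.8 CPM in WT replicates 1 to 3, 88.4 CPM in the library labelled KO replicate 1, and 65.3, 166, 176 and 119 CPM in KO replicates 2 to 5. WT replicate 3, the library labelled KO replicate 1 and KO replicate 2 were low, and the other 5 libraries were high. Group values were 109 ± 48.6 CPM for WT (SD, n = 3) and 123 ± 48.1 CPM for KO (SD, n = 5), a log2 fold change (KO minus WT) of 0.17 (SE 0.41, 95% interval -0.74 to 1.08, edgeR adjusted p = 0.954). Among libraries ending in br the log2 fold change was -0.58, the opposite direction.

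The same 3 libraries were low in basal keratinocyte markers. The 7 markers summed to 4323, 7257 and 5700.1 CPM in them and to 11159 to 14183 CPM in the other 5. Per 100 CPM of these markers, Jag2 stood at 1.02, 1.17 and 1.24 CPM in WT replicates 1 to 3, 1.22 in the library labelled KO replicate 1, and 1.15, 1.19, 1.24 and 0.995 in KO replicates 2 to 5. Both measures were set side by side after their values were seen, and the part of the basal markers in the Jag2 differences was not tested.

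**Figure D4:**
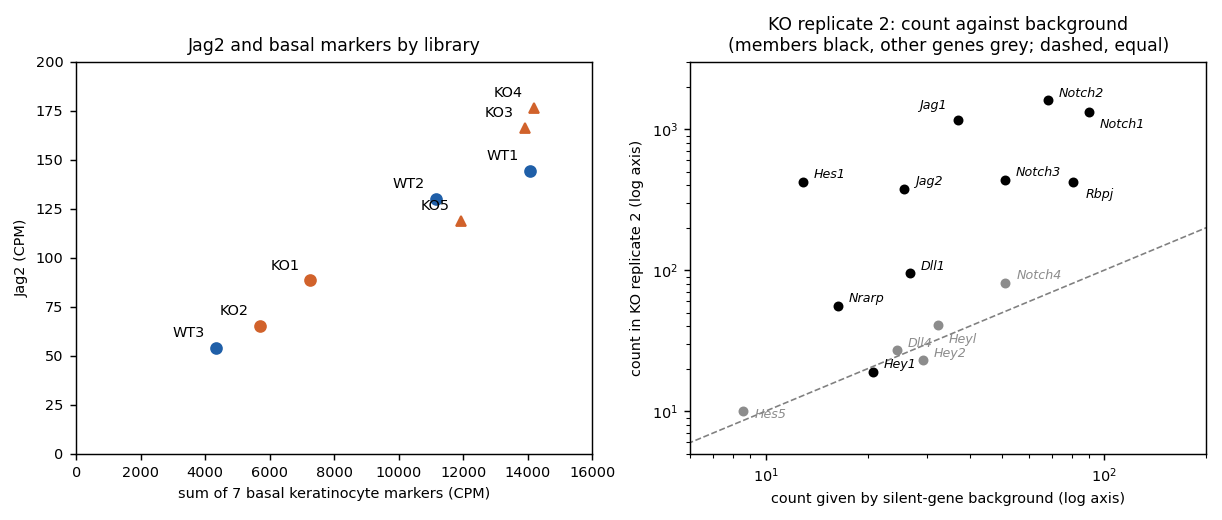
Left, Jag2 in CPM against the sum of 7 basal keratinocyte markers in CPM for each of 8 libraries (WT blue, KO orange, circles br, triangles bl): WT3, KO2 and KO1 are lowest on both axes. Right, counts in KO replicate 2 against the count its silent-gene background gives for the same exon length, both on log axes (members black, other Notch genes grey, dashed line equal): Hey1, with 19 counts against 20.7, lies on the line.

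Dll1 (ENSMUSG00000014773, chromosome 17, 15367354 to 15376872, minus strand) encodes a Delta-like ligand found in keratinocyte stem cell patches of human epidermis. It was scarce, at 34.0, 21.7 and 21.6 CPM in WT replicates 1 to 3, 23.4 CPM in the library labelled KO replicate 1, and 16.5, 24.6, 29.0 and 22.5 CPM in KO replicates 2 to 5. WT replicate 1 was the highest library and KO replicate 2 the lowest, and the other 6 lay between 21.6 and 29.0 CPM. With 25.8 ± 7.1 CPM for WT (SD, n = 3) and 23.2 ± 4.5 CPM for KO (SD, n = 5), the difference was a log2 fold change (KO minus WT) of -0.15 (SE 0.25, 95% interval -0.70 to 0.40, edgeR adjusted p = 0.937). An antisense gene, A930024N18Rik, overlaps Dll1, and the strand setting of the counts is not known here, so reads of the pair cannot be told apart. Antisense genes also overlap Notch1, Notch3, Rbpj and Nrarp. Of the summed length-scaled level of 5 ligand genes, Jag1 took 57.1% ± 9.53 in WT libraries (SD, n = 3) and 52.1% ± 9.2 in KO libraries (SD, n = 5), Jag2 34.3% ± 10.4 and 39.4% ± 10.4, and Dll1 8.06% ± 1.36 and 7.31% ± 0.469. Dll3 and Dll4 reached 3.58% and 2.1% in KO replicate 2 and at most 0.692% and 0.307% elsewhere.

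**Figure D5:**
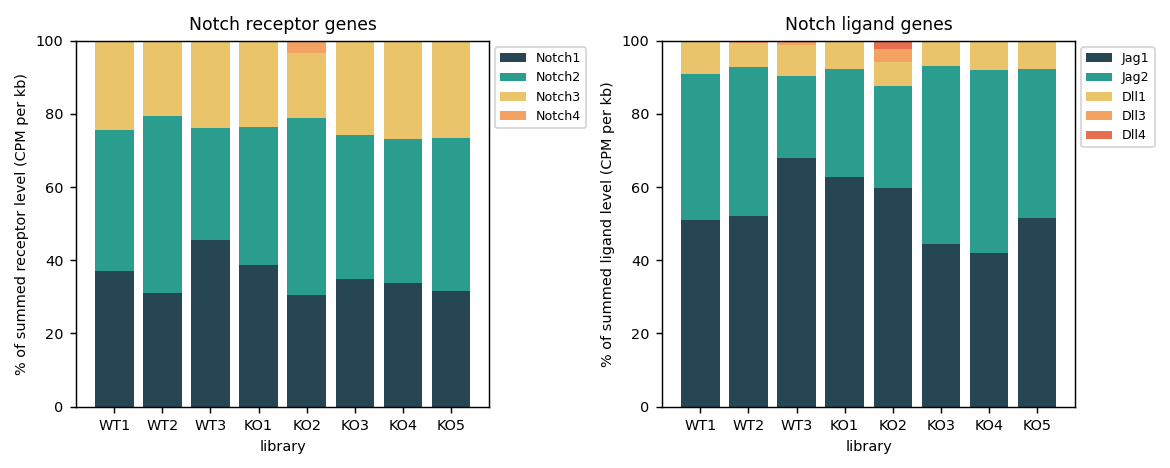
Share of each gene in the summed length-scaled level (CPM per kb) of 4 Notch receptor genes (left) and 5 ligand genes (right), as stacked percentages for each library. Notch1 and Notch2 hold most of the receptor pool in every library, and the Jag1 share is highest in WT3 at 68.0%, KO1 at 62.8% and KO2 at 59.7%.

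Rbpj (ENSMUSG00000039191, chromosome 5, 53466152 to 53657362, plus strand) encodes the DNA-binding protein through which all Notch receptors act. It was 100.2, 108 and 97.7 CPM in WT replicates 1 to 3, 135 CPM in the library labelled KO replicate 1, and 72.9, 96.3, 83.7 and 90.05 CPM in KO replicates 2 to 5. The WT libraries lay close together, while KO libraries spread on both sides of them. Group values were 102 ± 5.26 CPM for WT (SD, n = 3) and 95.6 ± 23.6 CPM for KO (SD, n = 5), a log2 fold change (KO minus WT) of -0.09 (SE 0.24, 95% interval -0.62 to 0.43, edgeR adjusted p = 0.956).

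The target gene Hes1 (ENSMUSG00000022528, chromosome 16, 30064384 to 30067796, plus strand) encodes a transcriptional repressor that holds spinous keratinocytes immature. Its levels were 60.6, 124 and 73.2 CPM in WT replicates 1 to 3, 103 CPM in the library labelled KO replicate 1, and 73.3, 48.9, 43.5 and 63.1 CPM in KO replicates 2 to 5. WT replicate 2 and the library labelled KO replicate 1 were the highest, and KO replicates 3 and 4 the lowest. Group values were 86.0 ± 33.7 CPM for WT (SD, n = 3) and 66.4 ± 23.6 CPM for KO (SD, n = 5), a log2 fold change (KO minus WT) of -0.37 (SE 0.34, 95% interval -1.12 to 0.38, edgeR adjusted p = 0.923). Hes1 had the smallest adjusted p of any member in any of the 17 alternative fits, 0.0758 in limma voom with library quality weights (log2 fold change -0.80), and was -0.86 without WT replicate 3, the library labelled KO replicate 1 and KO replicate 2. Among libraries ending in br it was -0.01, from 60.6 to 124 CPM in WT against 103 and 73.3 in KO.

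Nrarp (ENSMUSG00000078202, chromosome 2, 25180758 to 25183339, plus strand) encodes a small ankyrin repeat protein that is induced by Notch and limits its signal. It was 24.9, 16.7 and 32.6 CPM in WT replicates 1 to 3, 29.3 CPM in the library labelled KO replicate 1, and 9.73, 15.9, 15.9 and 16.1 CPM in KO replicates 2 to 5. KO replicates 3 to 5 were nearly equal and just under the lowest WT library, while the library labelled KO replicate 1 lay inside the WT range. With 24.7 ± 7.96 CPM for WT (SD, n = 3) and 17.4 ± 7.18 CPM for KO (SD, n = 5), its log2 fold change of -0.50 was the largest in size among the members (SE 0.35, 95% interval -1.28 to 0.27, edgeR adjusted p = 0.892). Leaving out WT replicate 2 moved it to -0.97 (adjusted p = 1) and leaving out the library labelled KO replicate 1 to -0.78 (adjusted p = 0.285). Without WT replicate 3 it was -0.26.

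Hey1 (ENSMUSG00000040289, chromosome 3, 8663359 to 8667256, minus strand) encodes a repressor related to Hes1 and best known from vessels and the dermal papilla. It had 14, 17 and 7 counts in WT replicates 1 to 3, 6 in the library labelled KO replicate 1, and 19, 5, 5 and 5 in KO replicates 2 to 5. These were 0.784, 1.12 and 0.547 CPM in WT replicates 1 to 3, 0.442 CPM in the library labelled KO replicate 1, and 3.3, 0.313, 0.285 and 0.348 CPM in KO replicates 2 to 5. In KO replicate 2 the silent-gene background gives 20.7 counts for the exon length of Hey1, against the 19 found, and in WT replicate 3 it gives 7.6 against 7. At this depth those counts are not distinguishable from background. The other KO libraries all lay below the 3 WT libraries, at 5 or 6 counts each. The difference was a log2 fold change (KO minus WT) of 0.12 (SE 1.04, 95% interval -2.18 to 2.43, edgeR adjusted p = 0.987), and without KO replicate 2 the gene did not pass the low-count filter.

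The same background made up a small part of the other members in KO replicate 2: 3.1% of the Hes1 count, 3.2% of Jag1, 4.3% of Notch2, 6.8% of Notch1 and Jag2, 11.6% of Notch3 and 19.2% of Rbpj. It came to 28.1% for Dll1 and 29.2% for Nrarp. For these 9 genes it was at most 1.4% in WT replicate 2 and 3.6% in WT replicate 3.

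Within the KO group, the libraries ending in bl were compared with those ending in br, since the WT libraries all end in br. Of 9 members tested, 0 passed in edgeR, and 0% of the 19026 genes tested passed. Jag2 was 154 ± 30.9 CPM in bl (SD, n = 3) and 76.9 in br (mean of 2), or 0.94 on the log2 scale (SE 0.30, edgeR adjusted p = 0.206). Hes1 went the other way, at 51.9 ± 10.1 and 88.2 CPM, with -0.82 (SE 0.27, edgeR adjusted p = 0.211). These were the 2 members with an unadjusted p under 0.05, against 17.5% of all genes. Jag2 and Notch3 were higher in every bl than in every br library, as were 19.4% of genes, and Hes1 was lower, as were 15.7%. The comparison rests on the 2 br libraries, which differ from each other. Without the library labelled KO replicate 1, 47.2% of all genes passed (12160) and 7 of 10 members did, Notch1, Notch2, Notch3, Jag2, Dll1 and Nrarp higher and Hey1 lower in bl. Without KO replicate 2, 23.9% passed (4620) and 4 of 9 members did, Jag2 higher and Hes1, Rbpj and Nrarp lower in bl. Hey1 was the member not tested with all KO libraries in. Without the library labelled KO replicate 1, its only br value was that of KO replicate 2. Its 19 counts there are about the 20.7 that the silent-gene background gives, against 5 in each bl library. The pass of Hey1 is therefore not read as a difference between endings. Both fits assume that the lone br library varies like the others. Jag2 passed in both in the same direction (1.29 and 0.77), and Nrarp passed in both in opposite directions (0.77 and -0.90).

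The patterns of the members over the 8 libraries were compared by the root mean square difference of log2 CPM, each gene centred on its own mean. Jag1 and Rbpj were the closest pair of members (0.137), followed by Notch1 and Notch3 (0.22) and by Notch2 and Dll1 (0.237). The measure is not scaled by spread, so genes that vary little lie close to each other. Jag1 and Rbpj varied least of the members (SD of log2 CPM 0.15 and 0.26), and no bound on spread was set for pairs of members. Among all genes with at least the spread of Notch1, the nearest to Notch1 were Lrrc8a, an anion channel gene (0.10), Sbno2 (0.113) and Zfp217 (0.128). All of these were lowest in KO replicate 2, as Notch1 was. The nearest to Hes1 were farther off: Bcar3, an adaptor gene (0.281), Gch1, which encodes GTP cyclohydrolase (0.292), and Zbtb16, a transcription factor gene (0.294). All genes compared share the same 8 libraries and their depth.

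The rest of the pathway was read from lists of 77 further genes, 71 of which were tested. None passed in edgeR, 3 had an unadjusted p under 0.05, 49 had a positive and 22 a negative log2 fold change, and the median was 0.10, beside 0.16 over all genes. In 2 of the 71 (2.82%) every KO library was higher than every WT library, near the 3.4% of all genes, and in 0 lower, against 1.75%. The 3 with an unadjusted p under 0.05 are 4.23% of the 71, against 6.28% of all genes. Positive values made up 69.0% of the 71 and 61.9% of all genes, and the lists are read against that share.

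Receptor maturation genes, which cut and glycosylate Notch on its way to the surface, had 6 of 6 positive values (median 0.41), but 0 passed. The highest per kb were Furin, a protease gene, at 129 ± 22.8 CPM for WT and 136 ± 60.4 CPM for KO (SD, log2 fold change 0.07), and Rfng, a fringe glycosyltransferase gene, at 14.2 ± 6.72 CPM for WT and 22.7 ± 5.75 CPM for KO (SD, log2 fold change 0.68). Receptor cleavage genes had 7 of 9 positive values and a median of 0.04, with the ADAM protease gene Adam10 at 119 ± 13.7 CPM for WT and 109 ± 26.1 CPM for KO (SD, log2 fold change -0.13). For ligand endocytosis, 2 of 5 were positive (median -0.18). The ubiquitin ligase gene Mib1, which activates ligands, was 239.8 ± 30.1 CPM for WT and 212 ± 31.9 CPM for KO (SD, log2 fold change -0.18), and Neurl1b 47.4 ± 28.6 CPM for WT and 41.4 ± 10.6 CPM for KO (SD, log2 fold change -0.19). Of trafficking and turnover genes 10 of 11 were positive (median 0.21), with Numb, a Notch antagonist gene, at 64.9 ± 5.56 CPM for WT and 71.3 ± 19.9 CPM for KO (SD, log2 fold change 0.14) and Fbxw7, which marks the intracellular domain for breakdown, at 78.0 ± 15.3 CPM for WT and 88.8 ± 18.9 CPM for KO (SD, log2 fold change 0.19). None of these passed.

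Nuclear coactivators had 6 of 8 positive values (median 0.12), with the acetyltransferase genes Crebbp at 430.4 ± 60.5 CPM for WT and 428 ± 106 CPM for KO (SD, log2 fold change -0.01) and Ep300 at 207 ± 4.62 CPM for WT and 222 ± 67.8 CPM for KO (SD, log2 fold change 0.10). Corepressors had 6 of 12 (median -0.02), with Ncor1 at 465 ± 34.4 CPM for WT and 415 ± 73.5 CPM for KO (SD, log2 fold change -0.17) and Tle4 at 167 ± 39.4 CPM for WT and 132 ± 17.5 CPM for KO (SD, log2 fold change -0.34). Other receptor and ligand genes had 4 of 5 positive (median 0.35), and Dlk2 was 8.4 ± 6.03 CPM for WT and 8.16 ± 3.61 CPM for KO (SD, log2 fold change -0.04), while Dll3 was 0.744 ± 0.646 CPM for WT and 1.27 ± 2.6 CPM for KO (SD, log2 fold change 0.69). The 4 positive genes, Notch4, Dll3, Dlk1 and Egfl7, were all highest in KO replicate 2, with 81, 34, 53 and 31 counts, of which the silent-gene background gives 51, 18, 35.8 and 22.7. In the other KO libraries none of these genes exceeded the highest WT library. Relatives of Hes and Hey had 3 of 5 positive (median 0.37), with Bhlhe40, a clock-linked repressor gene, at 184 ± 1.49 CPM for WT and 238 ± 120.4 CPM for KO (SD, log2 fold change 0.37) and Hes6 at 1.01 ± 0.402 CPM for WT and 2.42 ± 1.52 CPM for KO (SD, log2 fold change 1.24). Hes6 in KO libraries lay wholly above its WT range, at a low level, and did not pass (edgeR adjusted p = 0.848).

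Tle2 encodes a Groucho-family corepressor that Hes proteins recruit, and was picked out after its values were seen. It was 4.53, 4.63 and 6.02 CPM in WT replicates 1 to 3, 7.52 in the library labelled KO replicate 1, and 13.2, 11.4, 10.3 and 8.07 in KO replicates 2 to 5. All KO libraries were above all WT libraries. The log2 fold change was 1.0 (SE 0.29, edgeR adjusted p = 0.563), 1.09 in limma voom with library weights (adjusted p = 0.0211), and 0.94 among libraries ending in br (edgeR adjusted p = 0.993). The highest value, in KO replicate 2, came from 76 counts, and the silent-gene background of that library, 6.327 counts per kb of exon, was not taken out. KO replicate 2 is also among the 2 KO libraries ending in br.

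Keratinocyte differentiation and growth genes tied to Notch in skin had 5 positive and 5 negative values among 10 (median -0.04). Krt1 and Krt10 are the keratins of the spinous layer. Krt1 was 2279, 1826 and 398 CPM in WT replicates 1 to 3, 4854 in the library labelled KO replicate 1, and 1547, 4854, 4292 and 4859 in KO replicates 2 to 5. The value of KO replicate 2 was inside the WT range and the other KO libraries lay above it (log2 fold change 1.44, SE 0.58, edgeR adjusted p = 0.713). Krt10 was 5903 ± 1721 CPM for WT and 8294 ± 2856 CPM for KO (SD, log2 fold change 0.49). Cdkn1a, a cell cycle inhibitor gene that Notch1 can induce, was 416, 346 and 305 CPM in WT and 393 in the library labelled KO replicate 1, and it was 133, 193, 216 and 192 in KO replicates 2 to 5. Its KO values were below every WT library except in the library labelled KO replicate 1 (log2 fold change -0.66, SE 0.33, edgeR adjusted p = 0.832).

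Some fits gave less weight to the 3 libraries that stood apart, or left them out. The quality weights in limma voom were 1.47, 2.26 and 0.34 for WT replicates 1 to 3. They were 0.28 for the library labelled KO replicate 1, and 0.37, 2.25, 2.19 and 1.74 for KO replicates 2 to 5. The KO side of the weighted fit thus rests mostly on libraries ending in bl, while all WT libraries end in br. Genotype and ending can hardly be told apart in it. With library quality weights in limma voom, 6.46% of all genes passed. There 0 of 10 members and 5 of 71 other pathway genes (7.04%) did: Tle2, Krt1 (1.33, adjusted p = 0.0264) and Kat2a, an acetyltransferase gene (0.73, adjusted p = 0.0428), rose, and Cdkn1a (-0.86, adjusted p = 0.0181) and Fhl1, which encodes an RBPJ-binding LIM protein (-0.81, adjusted p = 0.0454), fell. Without WT replicate 3, the library labelled KO replicate 1 and KO replicate 2, 10.6% of all genes passed in edgeR, with 0 of 10 members and 10 of 67 other pathway genes. Those 4 that rose were Tle2, Krt1, Kat2a and Pofut1, a Notch fucosyltransferase gene (0.55, adjusted p = 0.0428), and the 6 that fell included Fhl1, Cdkn1a, Tle4, Maml1 and Myc (-0.83, adjusted p = 0.0069). There the KO libraries end in bl and the WT libraries in br, so genotype and ending cannot be told apart. Among libraries ending in br alone 0% of all genes passed. Of the 10 pathway genes that passed without the 3 libraries, 9 had the same direction there. Krt1 was at 1.06, Tle2 at 0.94, Kat2a at 0.07, Fhl1 at -0.65 and Myc at -0.55. Cdkn1a was at -0.45, Tle4 at -0.42 and Maml1 at -0.23, and Pofut1, at -0.04, had turned. Both fits share WT replicates 1 and 2, so agreement in direction is partly built in. The share of all genes with the same direction was not computed, and no conclusion is drawn from the 9 of 10. DESeq2 called 0.804% and limma voom without weights 0% of all genes, and 0 members in each. At an unadjusted p under 0.05 stood 2 members with library weights (Hes1 and Hey1), where 25.1% of all genes did. Without the 3 libraries 2 did (Hes1 and Jag1), against 27.5% of all genes, and without the library labelled KO replicate 1 alone 1 did (Nrarp), against 13.7%. In DESeq2, limma voom and the libraries ending in br 0 members did, against 3.63%, 7.2% and 2.36% of all genes.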

How the data were processed

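The values are raw counts of reads for every gene, which the authors deposited as whole numbers, 1 file for a library. The submitters' processing notes list featureCounts (Subread 1.5.2), STAR 2.5.2b and Trimmomatic 0.36, with no settings, and both GRCh38 and GRCm38 are named. The gene identifiers and coordinates in the files are those of mouse, and 49056 of 49315 genes were found in GENCODE release M21 (GRCm38). Symbols were found for 48970. The strand setting and the handling of multimapping reads are not stated there.

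The test was that of edgeR 4.0.16 (R 4.3.3, quasi-likelihood test, robust, TMM, filterByExpr, genotype as the 1 factor), with Benjamini-Hochberg adjustment over all 19239 genes and a threshold of 0.05. Log2 fold changes are KO minus WT. The biological coefficient of variation was 63.7%. The code was tested on simulated data. Alternatives used limma 3.58.1, DESeq2 1.42.0, other scalings and filters, and fewer libraries. Total counts per library were 5313552 to 18292303. Replicate numbers follow accession order and only name libraries.

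The members, the gene lists, the 3 libraries left out together and the tests were chosen with earlier results of these data known. Named are all members, the 2 genes highest per kb and any gene passing in each list, Tgfa, and the 3 genes closest to Notch1 and to Hes1. Tle2, Hes6, and the genes passing in other fits were named after their values were seen. Not every gene met by these rules is reported here. Kyat1 was taken off the corepressor list, as no role in the pathway is known, after its values were seen. Its log2 fold change was 0.83, and all KO libraries were above all WT libraries.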

Additional observations from a re-analysis of the deposited data

Results flagged for a closer look

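Of the member values, 4 lay far from the other KO libraries, by a gap of over 0.710 of the range of the 5 KO values (Dixon's test). For a single gene with normal values, chance gives such a gap in about 1 of 20 groups. The share of all genes with such a gap was not computed, so these values are not read as particular to the members. All 4 were in KO replicate 2 or the library labelled KO replicate 1, both among the libraries that stood apart. Notch2 was 278 CPM and Notch3 76.2 CPM in KO replicate 2, below the rest. Hey1 was 3.3 CPM in the same library, above the rest, where the silent-gene background gives about as many counts. Jag1 was 271 CPM in the library labelled KO replicate 1, above the rest, and that library had the highest Tgfa value. Without KO replicate 2 the log2 fold changes of Notch2 and Notch3 were 0.05 and 0.19, and without the library labelled KO replicate 1 that of Jag1 was -0.22, none of them past the edgeR threshold.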

How the results depend on the processing

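In all 17 alternative fits of KO against WT 0 members passed (Hey1 was not tested without KO replicate 2 and has no adjusted p in DESeq2). The count over all genes, 1 in edgeR, was 137 in DESeq2, 9 without the low-count filter, 1243 with library weights, 1883 without the 3 libraries that stood apart, and 0 with RLE size factors, in limma voom and among libraries ending in br, and 0 to 1 with each library left out in turn. Other pathway genes past the threshold were 5 with library weights, 10 without those 3 libraries and 0 with any library left out. Notch3 was -0.02 in DESeq2 and with RLE, -0.07 in limma voom, -0.40 with the label ending as a covariate and among libraries ending in br, and -0.33 to 0.33 with libraries left out. Jag2 was -0.59 with the ending as a covariate, -0.58 among libraries ending in br, and -0.16 to 0.45 with libraries left out. Hey1 was -0.88 in limma voom, -1.39 with library weights, -1.60 without the 3 libraries, and -0.12 to 0.37 with libraries left out. With libraries left out, Notch1 ran from -0.62 to 0.01, Notch2 from -0.28 to 0.15, Dll1 from -0.46 to 0.14 and the median of the members from -0.30 to 0.01. The cause was not tested. Positive members numbered 1 with the ending as a covariate, in limma voom and among libraries ending in br, and 0 to 6 with libraries left out. The median over all genes tested was -0.01 in limma voom against 0.16 in edgeR. Hes1, Nrarp and Jag1 were negative in every fit, and Rbpj was between -0.28 and 0. Within KO, bl against br gave 0 genes in edgeR and 0 to 12160 with libraries left out, where the lone br library is assumed to vary like the others. No paired analysis was possible because the labels give no replicate numbers shared between groups. Depth limits Hey1 most, at 5 to 19 counts per library.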

Other observations

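Other classical Notch targets of the Hes and Hey families were also scarce. In WT replicate 1, the library labelled KO replicate 1 and KO replicates 3 to 5, Hes5 had 0 to 3 counts, Hey2 1 to 2, Heyl 1 to 20 and Hes2 0 to 2. In KO replicate 2 they had 10, 23, 41 and 23 counts, where the silent-gene background gives 8.6, 29.1, 32.3 and 16.7. In WT replicate 2 they had 3, 5, 15 and 0 counts, where it gives 1.5, 5.1, 5.7 and 3.0. For WT replicate 3 the counts were 5, 17, 15 and 24, against 3.2, 10.7, 11.9 and 6.1, so Hes2 stood above background there. Of the vascular members of the pathway, Notch4 had 4 to 10 counts in WT replicate 1, the library labelled KO replicate 1 and KO replicates 3 to 5, and Dll4 0 to 9. In KO replicate 2 they had 81 and 27 against 51 and 24.4 from the background. Their counts were 30 and 8 against 9.0 and 4.3 in WT replicate 2, and 33 and 9 against 18.8 and 9.0 in WT replicate 3. The 9 endothelial markers had 638 counts in KO replicate 2, where the background gives 341.4, 159 against 60.4 in WT replicate 2 and 299 against 125.8 in WT replicate 3.

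The summed markers of each other cell type overlapped between the groups. Sums were 34.3 to 40.0 CPM in WT and 3.94 to 75.4 in KO for fibroblasts (Col1a1 and Dcn the highest per kb), 9.3 to 20.0 CPM in WT and 8.55 to 26.7 in KO for melanocytes (Pmel and Dct), 65.4 to 132 CPM in WT and 88.3 to 205 in KO for T cells (Thy1 and Cd7) and 601 to 926 CPM in WT and 222 to 869 in KO for Langerhans cells (Cd74 and H2-Aa). They were 485 to 1374 CPM in WT and 720.1 to 1625 in KO for the hair follicle (Krt17 and Krt79), 796 to 1217 CPM in WT and 596 to 1157 in KO for the sebaceous gland (Scd1 and Fasn), 2.52 to 9.85 CPM in WT and 0.125 to 28.7 in KO for muscle (Tnnt3 and Acta1) and 0.616 to 6.17 CPM in WT and 0.171 to 20.0 in KO for adipocytes (Cfd and Adipoq). The highest sums for fibroblasts, melanocytes, muscle and adipocytes were all in KO replicate 2. Of their 434, 154, 165 and 115 counts there, the silent-gene background gives 282.9, 111.8, 89.3 and 65.2. None of these marker genes passed in edgeR. Single markers still lay apart: Krt79, a keratin of the upper hair follicle and sebaceous duct, was 108 to 163 CPM in WT and 248 to 605 across the KO libraries (1.44 on the log2 scale, edgeR adjusted p = 0.431), and Thy1 was 9.3 to 35.7 CPM in WT and 36.8 to 77.2 in KO (1.06, edgeR adjusted p = 0.72). With library weights in limma voom, Krt79 rose (1.57, adjusted p = 0.00579), and the Langerhans cell markers Cd207 (-1.18, adjusted p = 0.0192) and H2-Eb1 (-1.06, adjusted p = 0.0444) fell. In that fit 6.46% of all genes passed. It weighs mostly KO libraries ending in bl against WT libraries ending in br, so genotype and ending can hardly be told apart. Of the 7 Langerhans cell markers, 5 had a negative log2 fold change in edgeR and 2 a positive one (Itgax 0.49 and Csf1r 0.19). A change in the number of these cells was not tested. Cd207 and H2-Eb1 were named after their values were seen.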
